A study of Mus musculus with 144 samples.

Results

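Of the 144 libraries of the series, 16 came from livers of mice on a daytime restricted diet (CR-day) at hours near the meal or far from it, and these 16 were compared with each other. The fed side held 8 libraries from circadian times (CT) 4, 8, 28 and 32 h, and the fasted side held 8 from CT 16, 20, 40 and 44 h. Every hour had 1 library with the letter A and 1 with the letter B. The members were chosen by their labelled hour alone, and no measured value entered the choice. The labels do not define CT 0 and do not state whether meals kept their hours once the mice were in darkness. If CT 0 is the start of the earlier light phase and meals kept their hours, the fed hours lay 4 and 8 h and the fasted hours 16 and 20 h after the start of the daily meal, and fed and fasted are used in that sense.

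The animals were wild-type male C57BL/6J mice aged 6 months that were housed singly with a running wheel, and the liver counts come from 10 weeks on the feeding schedule. CR-day mice received 10 pellets a day, equal to 70% of what they had eaten freely, dropped as 6, 2 and 2 pellets at intervals of 2 h within 6 h of access from the start of light. For reference, the same hours were taken from mice with unlimited food at all times (AL), from mice with unlimited food for the first 6 h of light (TR-day), and from mice given the CR ration from the start of the dark phase (CR-night), with 16 libraries each. A further 16 libraries, from mice with unlimited food for the first 6 h of the dark phase (TR-night), entered the fit across regimens, where they add to its estimate of the spread, and were not compared with CR-day. Livers were collected in constant darkness every 4 h over 12 time points, and polyadenylated RNA was sequenced. The headers call the 2 letters biological duplicates, and no label says what else the letters share. The p-values rest on the spread between libraries of a side within a letter. Libraries of different hours and days serve there as replicates, so that spread holds differences between animals and between hours together. Within CR-day the hour of the clock and the hour of the meal move together and cannot be told apart.

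The liver stores and releases energy in step with meals. After a meal insulin raises the transcription factor SREBP-1c, and with it the enzymes that turn glucose into fatty acids, whereas SREBP-2 governs cholesterol synthesis. Between meals glucagon and glucocorticoids raise gluconeogenesis, amino acid breakdown and autophagy. Liver cells also carry a circadian clock, in which CLOCK and BMAL1 (Arntl) drive the Per, Cry and REV-ERB (Nr1d1) repressors, and its phase in liver can be set by the time of food.

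Library totals ran from 6890208 to 19087683 counts. Letter A libraries held 12.5% to 15.2% mitochondrial counts and letter B libraries 23.8% to 36.2%, and the first principal component, with 56.0% of the variance, separated the letters, so the letter entered every test as a block. Mitochondrial transcripts took a median of 21.1% of counts at fed hours and 19.1% at fasted hours (exact two-sided permutation test within letters, p = 0.0314, adjusted p = 0.204 over 13 measures). CT44B, a fasted library, stood apart from the others. Its log2 CPM correlated with those of the other letter B libraries at a median r of 0.913, whereas the other 15 had medians of 0.938 to 0.974. The summed level of 15 hepatocyte markers was 57830 in normalised CPM in CT44B against 69910 to 139300 in the rest, and that of 12 stellate cell and fibroblast markers was 1128 against 364 to 522 CPM. The proliferation marker Mki67 stood at 105 CPM there and at no more than 3.85 in the others. A second column of that name in the brown fat count table holds counts identical to this liver library. List counts that changed without CT44B are given both ways. CT24B, which is in neither group but is drawn in the profiles over time, also stood apart: Mki67 was at 33.0 CPM and the collagen gene Col1a1 at 86.5 CPM there, against at most 7.34 and 10.1 CPM in the CR-day libraries other than it and CT44B. Hepatocyte markers were high in all 16 libraries. None of the 8 skeletal muscle markers passed the filter on low counts, and of 8 adipocyte markers only Lipe did. In bulk tissue, fewer cells of a type and less RNA per cell cannot be told apart.

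**Figure D1:**
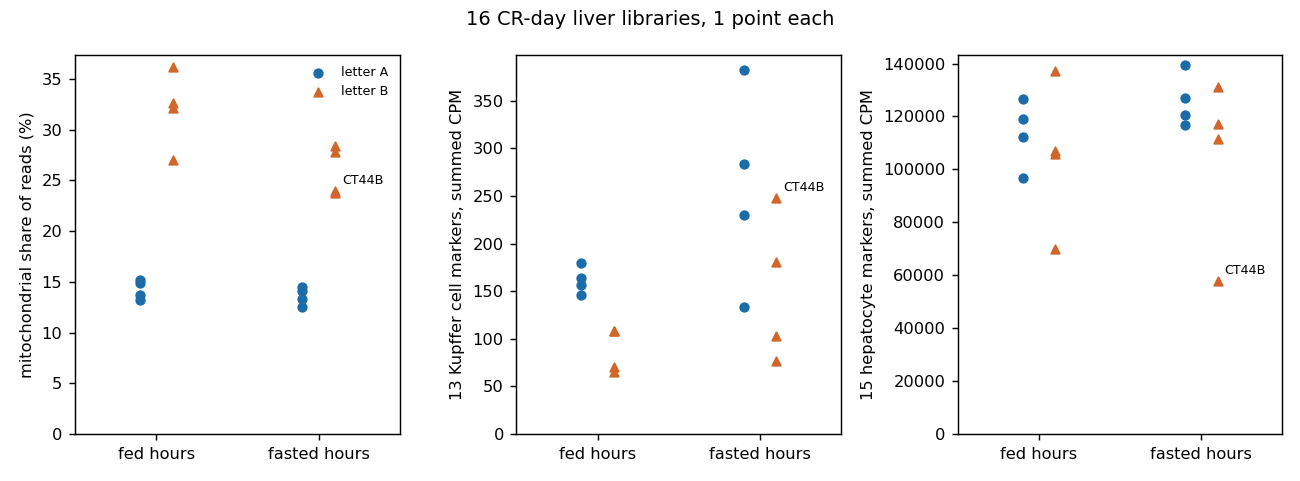
Each point is 1 of the 16 CR-day liver libraries at fed or fasted hours, with letter A as circles and letter B as triangles: the mitochondrial share of counts in %, and the summed CPM of 13 Kupffer cell markers and of 15 hepatocyte markers. The letters separate fully in the mitochondrial share (12.5% to 15.2% against 23.8% to 36.2%), and CT44B has the lowest hepatocyte sum, 57830 CPM.

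Fed and fasted hours differed in 1039 of 11629 genes tested, or 8.93%, at an adjusted p under 0.05 (quasi-likelihood F test of edgeR, adjusted after Benjamini and Hochberg). Of these, 544 genes (4.68% of those tested) were higher at fed hours and 495 (4.26%) were lower. The list counts below are to be read beside these shares, and those without CT44B beside the shares of that fit. On log2 of the deposited RPKM plus 0.1, limma called 1055 of 11350 genes, 205 higher and 850 lower, with a median over all genes of -0.14. Counts given below for the RPKM scale are not corrected for this, and the medians of single lists moved by differing amounts, some of them upward. Among the 1039 genes, 1026 had the same sign in letter A and in letter B. In 47 genes (0.404%) all 8 fed libraries lay above all 8 fasted ones, and in 37 (0.318%) all 8 lay below. Without CT44B, 656 of 11666 genes (5.62%) were higher and 637 (5.46%) lower, and 951 of the 1039 were called again in the same direction. Letter A alone gave 715 of the 1039, and letter B alone 14, with 610 at an unadjusted p under 0.05 there. The difference itself differed between the letters in 0 genes by edgeR (306 at an unadjusted p under 0.05).

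In fatty acid synthesis Pnpla3, Thrsp, Fasn, Elovl6 and Mid1ip1 each rose by more than 2 on the log2 scale. Pnpla3, a lipid droplet protein that remodels triglycerides, stood at 106, 265, 172 and 189 CPM in letter A at CT 4, 8, 28 and 32, and at 299, 269, 230 and 246 CPM in letter B. Its fasted levels in letter A were 7.05, 8.35, 7.09 and 10.7 CPM at CT 16, 20, 40 and 44, and those in letter B were 66.5, 4.84, 24.6 and 2.47 CPM. Every fed library thus lay above every fasted one, and the difference was 3.93 ± 0.49 on the log2 scale (edgeR, adjusted p = 8.71e-05). CT16B, the highest fasted library, lay well above the other 7.

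Thrsp, the lipogenic nuclear protein Spot 14, had a lowest, median and highest level of 347, 574 and 1136 CPM at fed hours and 4.21, 95.9 and 140 CPM at fasted hours. The groups did not overlap (log2 2.93 ± 0.39, adjusted p = 0.00017). Its partner Mid1ip1, which activates acetyl-CoA carboxylase, did the same, with 38.1, 76.6 and 153 CPM against 10.6, 22.3 and 29.4 CPM (log2 2.07 ± 0.14, adjusted p = 7.4e-08). Fasn, the fatty acid synthase, had 3721, 7207, 5679 and 5273 CPM in the fed letter A libraries and 1142, 566, 1917 and 1180 CPM in the fed letter B libraries. In fasted livers it had 845, 891, 964 and 1060 CPM in letter A and 439, 162, 607 and 75.2 CPM in letter B. The letters differed in level, and within each letter all but 1 pairing kept fed above fasted: the fed library CT08B at 566 CPM lay below the fasted CT40B at 607. Fasn rose by a log2 of 2.22 ± 0.34 (edgeR, adjusted p = 0.000554). Elovl6, which elongates palmitate, had 334, 983 and 1738 CPM against 90.7, 212 and 389 (log2 2.09 ± 0.28).

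Of 20 fatty acid synthesis genes, 7 rose (Acly, Elovl6, Fasn, Gpam, Mid1ip1, Pnpla3 and Thrsp) and 0 fell, against 4.68% and 4.26% of all genes, and the list's median was 0.32 beside -0.0026 over all genes tested. Without CT44B the count was again 7, and 7 were called on the RPKM scale. Among the regulators of lipid and glucose genes, 2 of 20 rose and 2 fell, and without CT44B 2 rose and 3 fell, with Ppara as the added one. Srebf1, which encodes SREBP-1, had 47.8, 265 and 693 CPM at fed and 30.1, 52.3 and 189 CPM at fasted hours, with overlap (log2 1.71 ± 0.24). Nr1h4, the bile acid receptor FXR, rose by 0.45 ± 0.14. Insig2, which holds SREBP in the endoplasmic reticulum, fell by 0.94 ± 0.20 and the coactivator Ppargc1b fell by 1.00 ± 0.27. Srebf1 overlaps Rai1 on the other strand, and the strand setting of the counting is not given in the sources used here, so its counts may hold reads of its neighbour. The same holds for Abcg8, Dbp, Fdft1, Map1lc3b, Mybbp1a, Nop56, Prodh, Wdr12 and Wipi1, named below, which overlap a tested gene on the opposite strand. Fdps, Map1lc3b, Per3 and Slc5a3 overlap one on the same strand, so that reads could be counted in either.

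Of 23 tested glycolysis and glycogen genes 2 rose and 0 fell, against 4.68% and 4.26% of all genes. Ppp1r3b, one of the 2, which targets a phosphatase to glycogen and favours its synthesis, had 446, 646 and 972 CPM at fed against 54.5, 154 and 245 CPM at fasted hours, and its groups did not overlap (log2 2.14 ± 0.32). The list's median was 0.13, and -0.03 on the RPKM scale. Rpia, a pentose phosphate enzyme, was higher in all 8 fed libraries, at 5.44 to 10.3 CPM against 1.93 to 3.27 CPM (log2 1.85 ± 0.15).

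Of 24 cholesterol synthesis genes, 13 rose and 0 fell, and Acat2, Dhcr7, Fdft1, Fdps, Insig1, Lss, Mvd, Pmvk, Sc5d and Sqle were among those that rose. The list's median was 0.59, and 23 of 24 values were positive, whereas 5773 of all 11629 genes were. Insig1, a sterol sensor that is itself a SREBP target, had 493, 484, 608 and 305 CPM in fed letter A and 721, 533, 546 and 371 CPM in fed letter B libraries. At fasted hours it had 147, 187, 154 and 188 CPM in letter A and 405, 146, 263 and 194 CPM in letter B. Of the fasted libraries only CT16B reached into the fed range, and the difference was 1.29 ± 0.20 (edgeR, adjusted p = 0.000554). Lss, lanosterol synthase, had 73.8, 106 and 157 CPM against 31.6, 49.5 and 75.0 CPM (log2 1.21 ± 0.17). Mvd, which overlaps a predicted gene on the other strand, rose by 1.76 ± 0.25. Without CT44B 9 of the 24 rose and 0 fell, and on the RPKM scale 7 rose and 0 fell.

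Promoter windows of 4 genes are shown as examples, a lipogenic gene (Pnpla3), a sterol gene (Insig1) and 2 fasting genes (Pck1 and Irs2). Each runs from 250 bases before to 50 after a gene start in RefSeq, build GRCm38.p6, and the 300 bases are given 5′ to 3′ on the gene's strand. The windows are chr15:84167566-84167865 on the plus strand for Pnpla3, chr5:28071162-28071461 on the plus strand for Insig1, chr2:173152823-173153122 on the plus strand for Pck1 and chr8:11008880-11009179 on the minus strand for Irs2. Capitals mark a match, on either strand, to a motif searched: CACGTG (E-box, bound by CLOCK and BMAL1 among others), TTATGNAA (D-box), TCACNCCAC (sterol response element), AGGTCA (core of REV-ERB and ROR elements), TGACGTCA (cAMP response element) and GAANNTTC (heat shock element).
Pnpla3: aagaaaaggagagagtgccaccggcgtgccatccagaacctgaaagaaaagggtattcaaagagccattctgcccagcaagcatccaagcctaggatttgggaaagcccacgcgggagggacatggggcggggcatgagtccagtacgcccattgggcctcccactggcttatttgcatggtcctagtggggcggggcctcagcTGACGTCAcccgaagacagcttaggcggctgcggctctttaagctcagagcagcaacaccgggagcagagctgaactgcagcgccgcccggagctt
Insig1: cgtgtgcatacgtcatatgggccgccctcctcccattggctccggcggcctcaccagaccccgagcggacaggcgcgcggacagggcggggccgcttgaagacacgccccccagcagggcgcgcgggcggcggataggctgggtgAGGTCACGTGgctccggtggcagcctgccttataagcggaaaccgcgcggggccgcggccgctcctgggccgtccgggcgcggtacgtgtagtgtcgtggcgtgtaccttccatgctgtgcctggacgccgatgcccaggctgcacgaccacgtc
Pck1: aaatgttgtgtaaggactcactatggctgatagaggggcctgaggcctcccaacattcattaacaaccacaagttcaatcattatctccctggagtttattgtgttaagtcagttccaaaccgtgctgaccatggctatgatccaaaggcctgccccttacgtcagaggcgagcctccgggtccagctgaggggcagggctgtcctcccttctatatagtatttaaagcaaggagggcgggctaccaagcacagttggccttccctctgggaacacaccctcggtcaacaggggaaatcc
Irs2: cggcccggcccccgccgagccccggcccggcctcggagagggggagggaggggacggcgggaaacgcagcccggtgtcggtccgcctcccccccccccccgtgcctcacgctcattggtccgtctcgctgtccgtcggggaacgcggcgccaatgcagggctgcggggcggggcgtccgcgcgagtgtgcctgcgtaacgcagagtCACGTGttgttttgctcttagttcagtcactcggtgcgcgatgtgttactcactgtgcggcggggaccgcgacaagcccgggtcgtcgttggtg
The Pnpla3 window holds 1 cAMP response element, the Insig1 window 1 E-box that overlaps 1 REV-ERB/ROR core, and the Irs2 window 1 E-box. No exact match was found in the Pck1 window. That window holds TTACGTCA, 1 base away from the cAMP response element searched, and such near matches were not counted in any window. Windows matched 420 of 542 symbols called higher and 368 of 495 called lower, and a gene can have more than 1 window. An E-box lay in 7.15% of all 32851 windows, in 9.86% of the 11619 windows of genes tested, in 14.4% of the 529 of genes called higher and in 10.9% of the 467 of genes called lower. For the REV-ERB/ROR core these shares were 16.3%, 13.0%, 17.0% and 14.3%, and for the cAMP response element 1.79%, 2.93%, 1.51% and 3.0%. The D-box lay in 3.38%, 2.22%, 3.40% and 1.28%, the sterol response element in 1.24%, 1.23%, 0.756% and 0.214%, and the heat shock element in 7.86%, 5.96%, 5.48% and 4.93%. These are counts of letters, not of binding. Of the 13 cholesterol genes that rose, 7 had a window (10 windows), and 3 of the 10 held an E-box. The 7 fatty acid genes that rose had 8 windows, of which 3 held a REV-ERB/ROR core and 1 the cAMP response element.

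**Figure D2:**
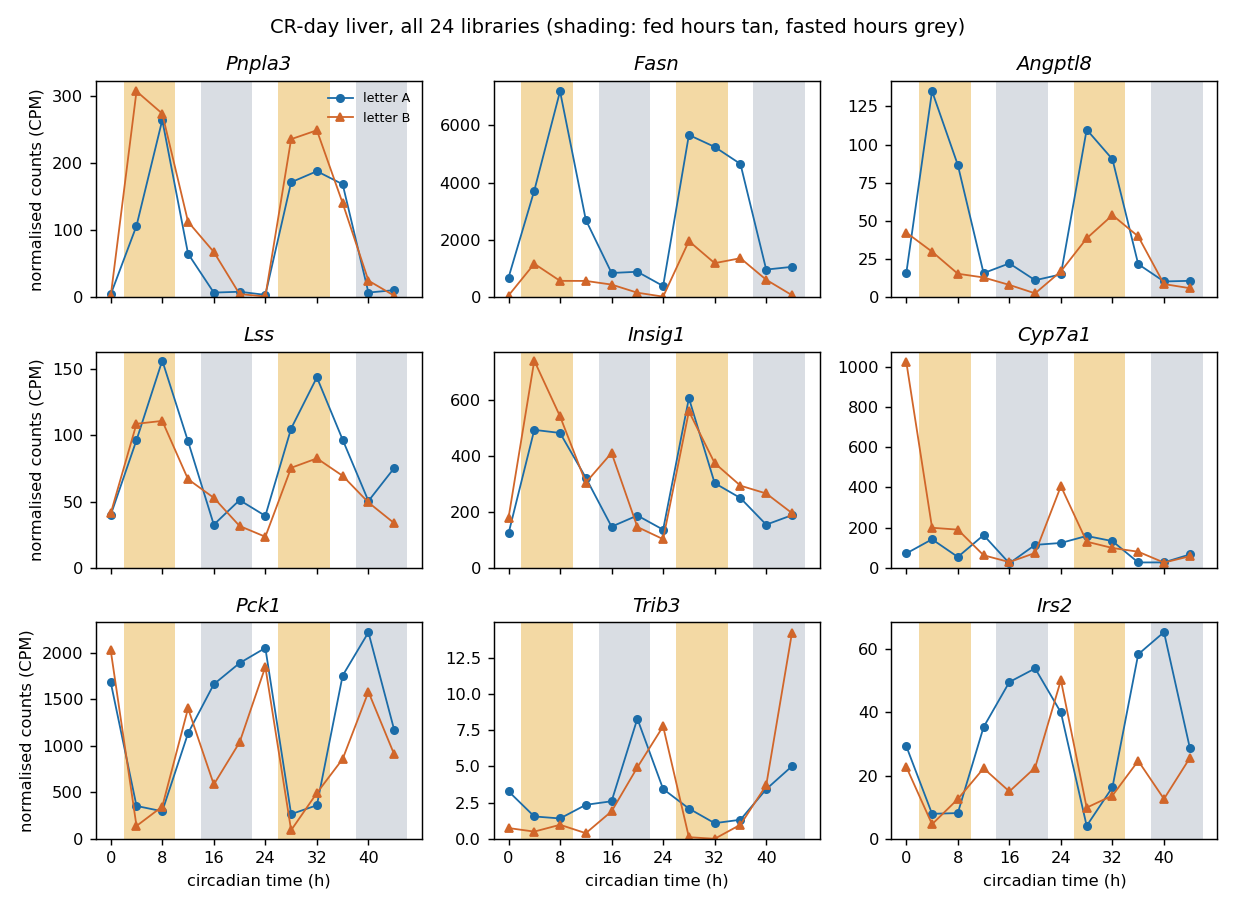
Levels in CPM against circadian time in h in all 24 CR-day liver libraries, with 1 panel per gene, letter A as one line and letter B as the other, and the fed and fasted hours shaded; CPM here are normalised over the 24 libraries. On average Pnpla3, Fasn, Angptl8, Lss, Insig1 and Cyp7a1 are higher at fed than at fasted hours and Pck1, Trib3 and Irs2 lower; Cyp7a1 in letter B is highest at CT 0 and 24, outside both groups, and CT24B is a library that stood apart.

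Of 22 gluconeogenesis and fasting genes 4 fell and 0 rose. Pck1, the enzyme that commits carbon to gluconeogenesis, had 354, 297, 266 and 363 CPM in fed letter A and 135, 342, 90.1 and 488 CPM in fed letter B libraries. At fasted hours it had 1654, 1889, 2212 and 1168 CPM in letter A and 576, 1036, 1565 and 900 CPM in letter B. All fed libraries lay below all fasted ones, and Pck1 fell by 2.19 ± 0.30 (edgeR, adjusted p = 0.000185). Irs2, an insulin receptor substrate that fasting induces in liver, had 4.10, 8.89 and 16.4 CPM at fed and 12.5, 27.0 and 65.0 CPM at fasted hours. Its groups overlapped, and the change was larger in letter A than in letter B, -2.42 against -0.93, with an adjusted p for the difference between letters of 1 (log2 -1.70 ± 0.33 over both, adjusted p = 0.00325). Trib3, a pseudokinase that restrains AKT, ran from 0 to 2.09 CPM at fed and from 1.87 to 14.1 CPM at fasted hours (log2 -2.52 ± 0.50, adjusted p = 0.00434). Angptl4, a secreted inhibitor of lipoprotein lipase, had 8.22, 17.5 and 33.6 CPM against 10.2, 52.1 and 123 CPM (log2 -1.49 ± 0.36).

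These 4 were the fasting genes that fell, and the median of the list was -0.20. Without CT44B 4 fell and 2 rose, Pdk4 and Gadd45a. Amino acid breakdown had 3 of 25 lower and 0 higher, and without CT44B 4 lower and 1 higher, with Hal added among the lower and Prodh the higher one (log2 0.71, adjusted p = 0.0199 by edgeR). Got1, the cytosolic aspartate aminotransferase, lay at 45.7, 86.9 and 131 CPM at fed and 152, 183 and 389 CPM at fasted hours, without overlap (log2 -1.29 ± 0.19). Sds, serine dehydratase, fell by 0.86 ± 0.20 and Tdo2, which opens tryptophan breakdown, by 0.64 ± 0.18. Sds overlaps Plbd2 on the other strand. Of 21 autophagy genes, 4 fell and 0 rose, and without CT44B 4 fell and 1 rose. Gabarapl1, which encodes a protein of the autophagosome membrane, had 44.4, 110 and 138 CPM against 127, 225 and 261 CPM (log2 -1.02 ± 0.16), and Wipi1, Map1lc3b and Atg14 fell by 0.83 ± 0.17, 0.48 ± 0.12 and 0.46 ± 0.13. Pnpla2, the triglyceride lipase ATGL, fell by 0.65 ± 0.16, while Mgll, which splits monoglycerides, rose by 0.95 ± 0.19. These were the only 2 of 17 lipid droplet genes that changed, against 8.93% of all genes.

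Fatty acid oxidation and ketogenesis changed in 1 of 30 genes, against 8.93% of all genes. It was the peroxisomal thiolase Acaa1b, which rose by 0.82 ± 0.21. Cpt1a, the carnitine palmitoyltransferase that gates entry into mitochondria, had 230, 273 and 334 CPM at fed and 199, 369 and 561 CPM at fasted hours, and its difference of -0.50 ± 0.17 missed the threshold (edgeR, adjusted p = 0.0689). The median of this list was 0.19, with 24 of 30 values positive, and 0.04 on the RPKM scale.

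Of 17 hepatokines 3 rose and 1 fell, against 4.68% and 4.26% of all genes. Angptl8, a feeding-induced hepatokine, had 15.2, 70.1 and 135 CPM at fed and 2.61, 9.48 and 22.1 CPM at fasted hours. At these 8 hours letter A lay above letter B, the groups overlapped only across letters, and the difference was 2.71 ± 0.27 (edgeR, adjusted p = 7.87e-06). Angptl8 overlaps Dock6 on the opposite strand. Tsku, a secreted protein of liver, rose by 2.09 ± 0.27, and Inhba, the activin A subunit, by 1.54 ± 0.33. Angptl4 was the hepatokine that fell. In the insulin and growth hormone axis, 3 of 16 fell and 0 rose: Irs2, the cytokine signalling inhibitor Socs2 (log2 -1.63 ± 0.47) and Socs3 (log2 -0.86 ± 0.26, adjusted p = 0.0461, and 0.054 without CT44B). Klf9 and Errfi1, both raised by glucocorticoids, fell by 1.26 ± 0.21 and 0.97 ± 0.21. They were 2 of 14 such genes, where 4.26% of all genes fell, and 0 rose. Without CT44B Pdk4 of the same list was called as well, in the opposite direction (log2 1.12, adjusted p = 0.0129 by edgeR, against 0.76 and 0.153 with it). The median of that list was -0.58 with CT44B and -0.08 without it.

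Bile acid synthesis and transport had 3 of 19 genes higher and 1 lower, and without CT44B 2 higher and 2 lower, with Abcg8 added among the lower. Of all genes, 4.68% were higher and 4.26% lower, or 5.62% and 5.46% without CT44B. Cyp7a1, the rate-limiting enzyme of bile acid synthesis, had 55.4, 139 and 195 CPM at fed against 23.6, 43.6 and 115 CPM at fasted hours (log2 1.38 ± 0.33, adjusted p = 0.0131). Its highest levels in letter B lay outside both groups of hours, at 1024 CPM at CT 0 and 407 CPM at CT 24, where letter A had 72.5 and 125 CPM. The value at CT 24 is from CT24B, the library that stood apart, and its part in that value was not tested. Abcb11, the bile salt export pump, fell by 0.67 ± 0.17. Akr1d1, a steroid reductase of the pathway, rose by 0.63 ± 0.20 (edgeR, adjusted p = 0.0496) but missed the threshold without CT44B, at 0.053. The fourth gene was Nr1h4. Alas1, the first enzyme of haem synthesis, rose by 1.70 ± 0.47, the only one of 26 cytochrome P450 and xenobiotic genes called with CT44B (2 rose without it, the other being Cyp2a5, which may share reads with its close paralogs), and ran from 49.1 to 1411 CPM at fed and from 61.2 to 509 CPM at fasted hours.

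Of 32 ribosome biogenesis genes 6 rose and 0 fell, 28 of 32 values were positive and the median was 0.33; without CT44B 10 rose, and on the RPKM scale 2 did. Mybbp1a, a nucleolar protein, had 55.6, 62.7 and 79.9 CPM at fed and 25.9, 34.5 and 40.1 CPM at fasted hours, with no overlap (log2 0.93 ± 0.10, adjusted p = 2.59e-05). The others that rose were Nolc1, Nop56, Rrp12, Utp20 and Wdr12. Heat shock chaperones had 4 of 20 higher, 0 lower and 18 positive, with a median of 0.50. They were Hspe1 (log2 0.77 ± 0.15), Fkbp4 (0.77 ± 0.15), Dnaja1 (0.84 ± 0.23) and Bag3 (0.68 ± 0.21), of which Hspe1 and Dnaja1 overlap another gene on the opposite strand; on the RPKM scale 2 of the list rose, and with DESeq2 6. Of 20 genes for chaperones of the endoplasmic reticulum and the unfolded protein response, 0 passed the threshold in edgeR, in DESeq2 or in limma-voom. In edgeR 3 had an unadjusted p under 0.05. Of the 20 values 16 were positive, and the median was 0.23, or -0.02 on the RPKM scale. Hspa5 (BiP), the main chaperone of the endoplasmic reticulum, ran from 275 to 1692 CPM at fed and from 275 to 997 CPM at fasted hours.

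Nampt and Nmrk1, which feed NAD salvage, rose by 1.07 ± 0.17 and 1.06 ± 0.16, as 2 of 11 genes. Fga and Fgg, 2 fibrinogen chains, fell by 0.74 ± 0.16 and 0.65 ± 0.16, and Saa4 rose by 0.37 ± 0.11, so that 2 of 20 acute phase genes were lower and 1 higher; without CT44B 4 were lower and 0 higher. Slc40a1, the iron exporter ferroportin, and Slc39a14, a metal importer, fell by 0.45 ± 0.11 and 0.42 ± 0.12, as 2 of 15 iron and metal genes; without CT44B Tfrc of that list rose as well. Wee1, a cell cycle kinase under clock control, rose by 1.33 ± 0.37. It was the only 1 of 16 cell cycle genes called, and 3 rose without CT44B. Over all genes tested, 4.68% were higher and 4.26% lower, or 5.62% and 5.46% without CT44B. A count of 1 in lists of 16 or 20 genes lies near these shares.

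**Figure D3:**
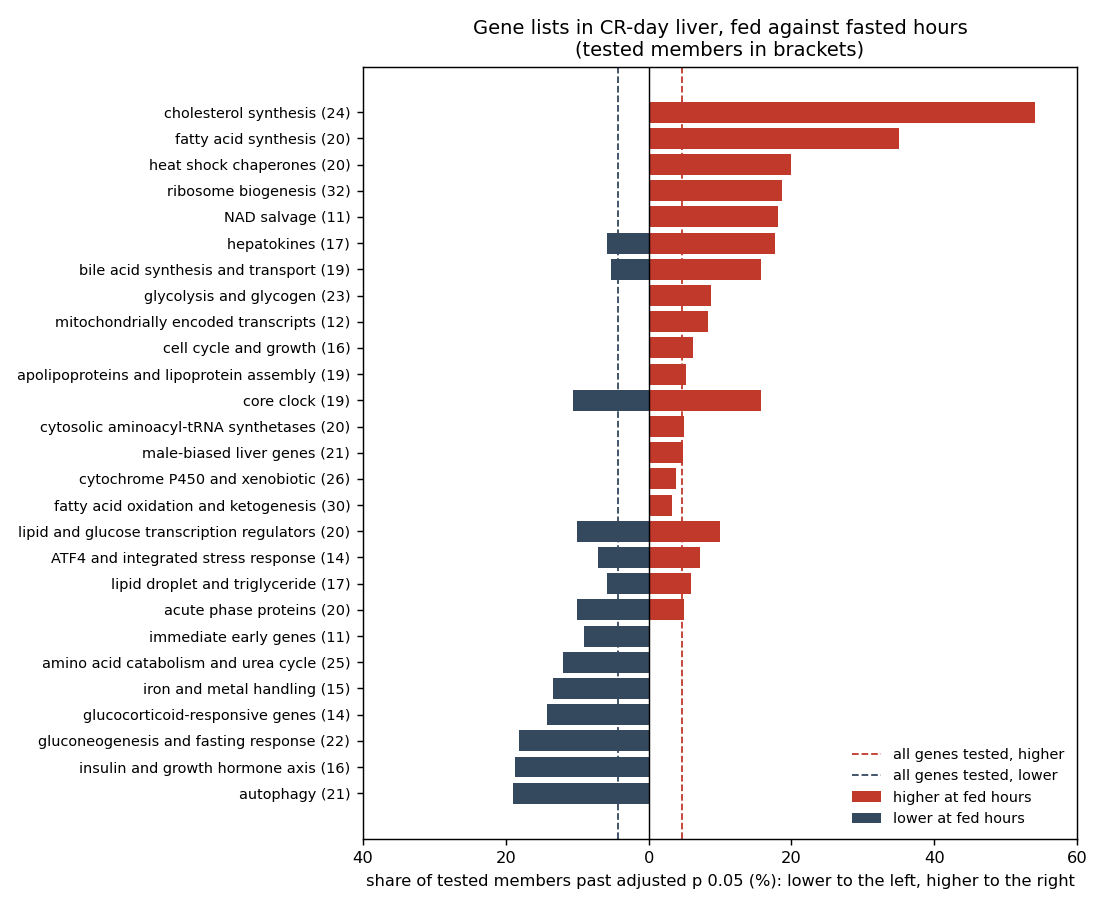
Share of tested members of each pathway list that passed an adjusted p of 0.05 in CR-day liver, in %, with members higher at fed hours to the right and lower ones to the left, and the number tested in brackets; dashed lines mark the shares over all genes, 4.68% higher and 4.26% lower. Only lists with at least 1 gene called are drawn; cholesterol synthesis (13 of 24) reaches farthest to the right.

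Of 19 core clock genes 3 rose, 2 fell and the others did not pass the test. Per2, a clock repressor that also responds to feeding, had 102, 66.4, 98.5 and 48.3 CPM in fed letter A and 69.1, 38.7, 91.0 and 42.3 CPM in fed letter B libraries. At fasted hours it had 17.9, 25.9, 18.6 and 20.7 CPM in letter A and 12.1, 15.8, 13.4 and 10.8 CPM in letter B. The groups did not overlap, and on both days CT 4 or 28 lay above CT 8 or 32 (log2 2.06 ± 0.20, adjusted p = 4.89e-06). Bhlhe40, another repressor, had 109, 156 and 219 CPM against 47.9, 60.6 and 104 CPM (log2 1.23 ± 0.15). Its groups did not overlap either.

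Nr1d1 fell by 1.76 ± 0.44 (edgeR, adjusted p = 0.0168), at 5.52, 11.7 and 56.6 CPM at fed and 20.4, 50.7 and 162 CPM at fasted hours. On the first day letter A still held 56.6 and 50.2 CPM at CT 4 and 8, above the fasted 25.6 CPM at CT 16, so the groups overlapped. Nr1d1 overlaps Thra on the opposite strand. Clock fell by 0.76 ± 0.18 (adjusted p = 0.0152), with 29.6, 55.1 and 84.9 CPM against 46.2, 80.4 and 140 CPM. Arntl, Per1 and Dbp gave log2 differences of -0.22 ± 0.47, -0.01 ± 0.36 and -0.59 ± 0.73, with adjusted p of 0.81, 0.988 and 0.648. Their hours of high and low levels cut across the split: Arntl ranged from 4.85 to 36.5 CPM among fed and from 3.05 to 38.6 CPM among fasted libraries, and Dbp from 5.33 to 72.5 and from 1.60 to 109 CPM. Per3 (1.21 ± 0.43, adjusted p = 0.0904) and Cry1 (1.08 ± 0.47, adjusted p = 0.165) did not pass, and neither did Npas2, Cry2, Nr1d2, Rora, Tef, Hlf, Nfil3, Bhlhe41 and Ciart. Without CT44B 3 of 19 again rose and 2 fell.

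**Figure D4:**
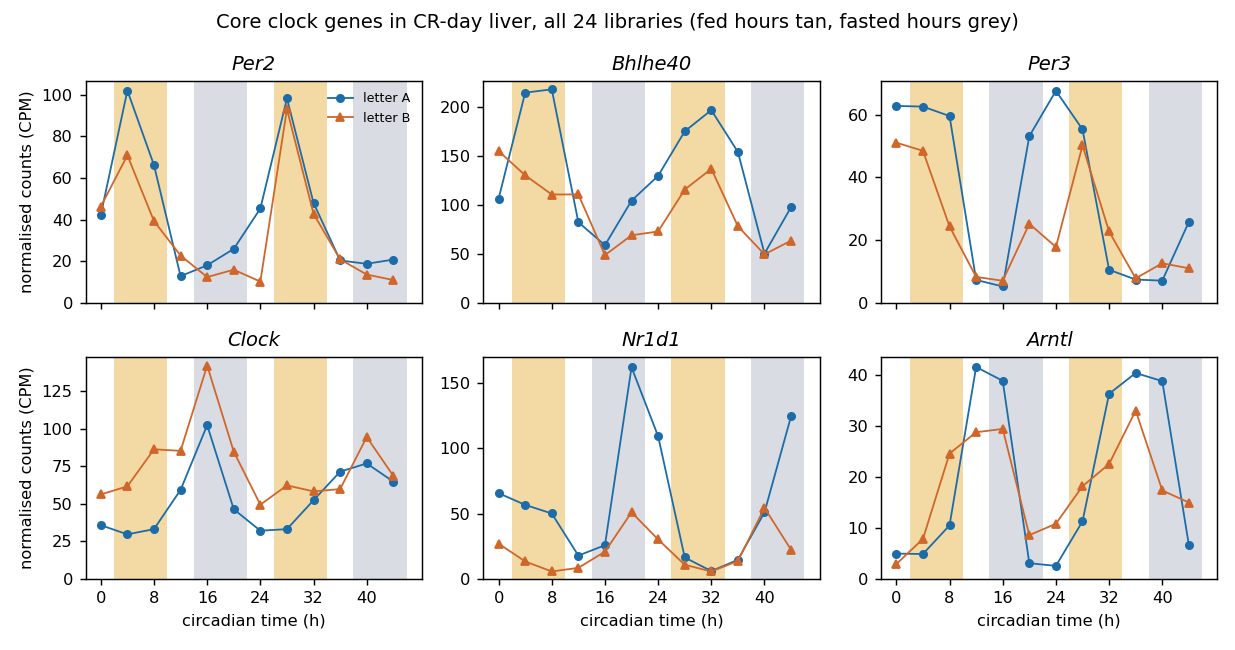
Levels in CPM of 6 core clock genes against circadian time in h in all 24 CR-day liver libraries, letters A and B drawn as separate lines, fed and fasted hours shaded; CPM are normalised over the 24 libraries. On average Per2 and Bhlhe40 are higher at fed hours and Nr1d1 and Clock at fasted hours. Nr1d1 (25.7 CPM in CT16A and 162 CPM in CT20A) and Clock (102 and 46.3 CPM) also change level within the shaded hours. So do Per3 and Arntl, which did not pass the test.

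Several of the largest changes belong to none of these lists. Nat8f5, an N-acetyltransferase 8 family member at chr6:85817218-85820972 on the minus strand (mm10), had 18.5, 10.0, 12.5 and 26.5 CPM in fed letter A and 11.1, 21.7, 21.1 and 20.3 CPM in fed letter B libraries. At fasted hours no library passed 2.53 CPM (log2 3.79 ± 0.28, adjusted p = 2.26e-07). Its paralog Nat8f6 overlaps it on the same strand and moved alike, from 0.0769 to 0.407 CPM at fasted to 1.59 to 5.35 CPM at fed hours, so reads of the pair may have been divided between them. Lingo4 rose by 2.57 ± 0.34, and reads running past a neighbouring gene could be counted in it. Col27a1, a fibrillar collagen, had 78.6, 126 and 207 CPM against 9.07, 28.6 and 38.1 CPM (log2 2.24 ± 0.25). Cyp26a1, which degrades retinoic acid, rose by 2.15 ± 0.26 from 1.02 to 2.67 CPM at fasted to 3.89 to 12.9 CPM at fed hours. None of these 5 overlapped between fed and fasted libraries, nor did Slc25a30, Nlrp12 and Rab11fip4 among the falls. Over all genes 0.404% lay fully above and 0.318% fully below at fed hours. All of these genes were named from values of these same libraries, so their lack of overlap is no separate evidence. Nat8f6 was named by its contrasts with AL and CR-night, which hold these libraries too.

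Slc25a30, a mitochondrial carrier, had 1.52, 3.99 and 5.61 CPM at fed and 9.32, 19.8 and 30.5 CPM at fasted hours (log2 -2.24 ± 0.21, adjusted p = 4.89e-06). Nlrp12, a regulator of inflammatory signalling, had 4.48, 8.74 and 10.3 CPM against 11.8, 30.3 and 57.5 CPM (log2 -2.02 ± 0.22). Rab11fip4, a RAB11 effector, fell by 1.88 ± 0.21, Dhrs9, a short-chain dehydrogenase, by 1.81 ± 0.34, and Fbxo21, a ubiquitin ligase subunit, by 1.60 ± 0.27. Nek2, a mitotic kinase, fell by 2.13 ± 0.50, and its highest fasted value, 18.2 CPM in CT44B, stood far above the next, 4.41 CPM; the call held without that library at an adjusted p of 0.00724.

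Of 13 Kupffer cell and macrophage markers tested, 4 fell (Adgre1, Cd5l, Marco and Vsig4), 0 rose and none had a positive log2 difference, with a median of -0.70 on the log2 scale. Their summed level was 65.0, 127 and 180 CPM at fed and 76.4, 206 and 383 CPM at fasted hours (exact two-sided permutation test within letters, p = 0.0261, adjusted p = 0.204). Adgre1, which encodes F4/80, fell by 1.13 ± 0.26. Marco, a scavenger receptor, fell by 1.64 ± 0.50 at an adjusted p of 0.0452, and by edgeR without CT44B its adjusted p was 0.0534; Cd5l and Vsig4 were likewise not called without it, at 0.0656 and 0.0646. Without CT44B 2 of the 13 fell, Adgre1 and Timd4. With it, DESeq2 called 6 and limma-voom 1, and 8 had an unadjusted p under 0.05 by edgeR. Of 13 endothelial markers 0 passed in edgeR, DESeq2 or limma-voom, and 0 had an unadjusted p under 0.05, and of 12 stellate cell markers Reln fell by 0.51 ± 0.16 with CT44B and was not called without it (adjusted p = 0.0751). The part of these markers in the results above was not tested. Among transcripts encoded in mitochondria, mt-Nd1 rose by 0.46 ± 0.13 as 1 of 12, and mt-Atp6 ran from 0 to 47490 counts across the 24 CR-day libraries (log2 -2.99 ± 1.99, adjusted p = 0.368). It overlaps mt-Atp8 and mt-Co3 on the same strand, so that reads could be counted in any of them. Across the same libraries mt-Atp8 ran from 0 to 39641 and mt-Co3 from 0 to 6699 counts, whereas mt-Nd1 ran from 241235 to 652226. The cause of this range was not tested.

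The same hours in the other regimens were set beside these in 1 fit of 80 liver libraries from 5 regimens, which tested whether the difference between hours itself differed. In TR-day, with the same meal hours but unlimited food, the difference departed from that of CR-day in 0 of 12128 genes (0%), with 1055 at an unadjusted p under 0.05, and DESeq2 also gave 0 (1138 unadjusted). Of the 544 genes higher at fed hours in CR-day, 517 (95.0%) were higher at those hours in TR-day, with a median log2 of 0.52 there, and of the 495 lower ones 3 (0.606%) were, with a median of -0.52; among all genes the share was 46.1%. Fasn differed between the hours by 0.91 ± 0.41 in TR-day and by 2.23 in CR-day in this fit, which leaves a difference of 1.31 ± 0.57 at an adjusted p of 0.539, so these data neither show the regimens to differ nor that they act alike. Among the genes with the smallest p in this contrast, Serinc5, Zfp12, Nubp2, Irf2bp1 and Fdx1l each had an adjusted p of 0.463; Serinc5 had log2 -0.49 in CR-day and -0.04 in TR-day.

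In AL livers the difference between these hours departed from that of CR-day in 2291 genes (18.9%), 1144 upward and 1147 downward. Upward here and below means a larger signed difference in CR-day than in the other regimen, not a higher level. Of the 544 genes 121 (22.2%), and of the 495 genes 394 (79.6%), were higher at CT 4, 8, 28 and 32 in AL, against 49.3% of all genes. Among the genes with the smallest p were Nat8f5 (5.93 ± 0.43 between the log2 differences), Nat8f6 (6.32 ± 0.46), Ttc23 (2.23 ± 0.19), Lingo4 (5.23 ± 0.46) and Gda (2.68 ± 0.24). Each rose at those hours in CR-day and had the opposite sign in AL. Per2 differed by 2.07 in CR-day and -1.79 in AL, Nr1d1 by -1.74 and 3.90, and Pck1 by -2.20 and 0.76.

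CR-night livers took the same ration in the opposite phase. At the same clock hours the difference departed from that of CR-day in 4388 genes (36.2%), 2146 upward and 2242 downward, and of the 544 and 495 genes 87 (16.0%) and 418 (84.4%) were higher at CT 4, 8, 28 and 32 in CR-night. Mid1ip1 gave 2.08 in CR-day and -1.76 in CR-night, Rpia 1.85 and -1.88, and Fkbp4 0.77 and -1.88. When CR-night was aligned to its own meal, so that CT 16, 20, 40 and 44 became its fed hours, 1294 genes (10.7%) differed, 740 upward and 554 downward. Among 20 fatty acid synthesis genes 11 differed by the clock and 0 by the meal, and among 24 cholesterol genes 15 and 1. For Pnpla3 the difference from CR-night aligned to the meal was 0.53 ± 0.81, for Fasn 0.17 ± 0.57 and for Pck1 0.09 ± 0.49 (edgeR, adjusted p of 0.729, 0.886 and 0.926).

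Some genes differed when the regimens were aligned to the meal. Heat shock chaperones did so in 13 of 20 genes: the list's median early minus late difference was 0.50 in CR-day, 0.14 in TR-day, -1.04 in AL and -1.25 in CR-night. For Fkbp4 the change with the meal was smaller by 1.11 ± 0.21 in CR-day than in CR-night (adjusted p = 0.000286). Of 19 clock genes 5 differed, namely Nr1d1 (3.0 ± 0.66), Nr1d2 (2.19 ± 0.56), Dbp (4.54 ± 1.17), Clock (-1.12 ± 0.28) and Nfil3 (-1.77 ± 0.47). Per2 did not, at 0.03 ± 0.53. Among the genes with the smallest p were Hist2h3c1 (-4.76 ± 0.48), Ddx46 (1.08 ± 0.15), Syt1 (2.96 ± 0.41), Serinc3 (-1.10 ± 0.16) and Slc5a3 (-2.09 ± 0.30). In Hist2h3c1, a histone H3 gene, the hours differed by -0.97 in CR-day, -2.17 in AL, -1.17 in TR-day and -3.79 in CR-night. Ddx46, Serinc3 and Slc5a3 likewise had 1 sign in all of these regimens at the same clock hours. Syt1 was near 0 in CR-day and positive in the other regimens.

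**Figure D5:**
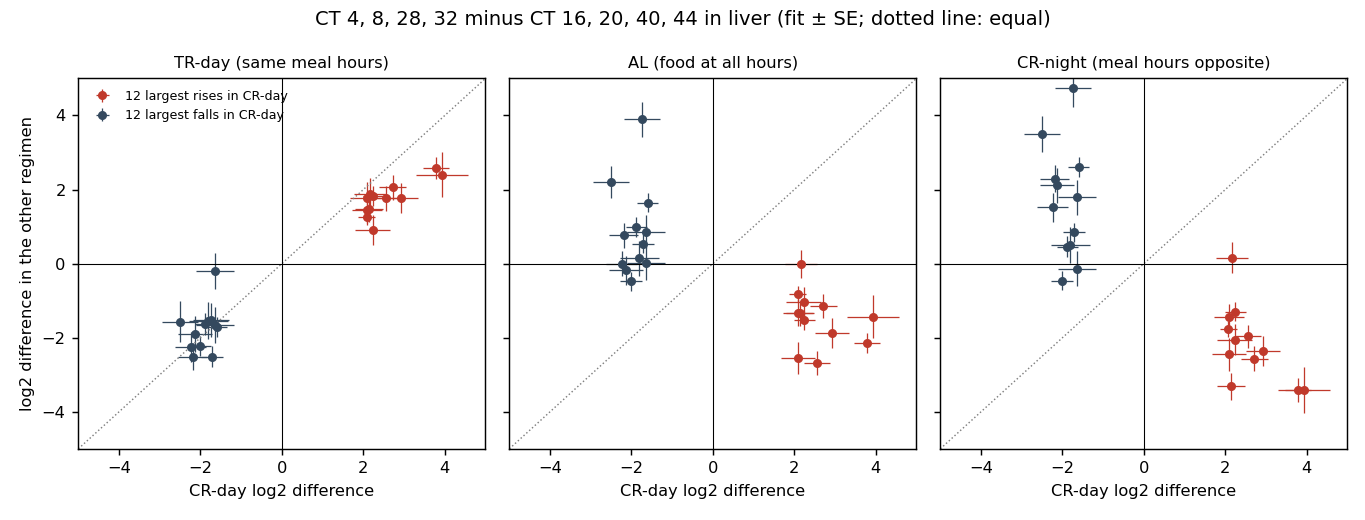
Difference between CT 4, 8, 28, 32 and CT 16, 20, 40, 44 on the log2 scale in CR-day liver (horizontal) and in TR-day, AL or CR-night liver (vertical), for the 12 largest rises and 12 largest falls of CR-day. Bars are standard errors derived from the F statistic, and the dotted line marks equal values. In TR-day the genes keep their sign, as Pnpla3 at 2.40, and in CR-night Pnpla3 stands at -3.40.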

How the data were processed

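Polyadenylated liver RNA was sequenced in 24 CR-day libraries, of which the 16 at fed and fasted hours were compared. The deposited raw counts per gene (21869 genes) were made by the authors with tools that the submitters' processing notes list as FastQC, cutadapt, STAR and featureCounts; versions, annotation and strand setting are not given in the sources used here. The RPKM (11350 genes) are as the authors deposited them, and they match these counts over gene length and library within a relative deviation of 4.96e-07.

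Counts were filtered with filterByExpr, scaled by TMM and tested with edgeR 4.0.16 (quasi-likelihood F test, R 4.3.3) with the letter as a block and Benjamini-Hochberg adjustment over all genes at 0.05. Differences between regimens were contrasts in 1 fit of 80 libraries. CPM are TMM-normalised, with values per library over 8 a side. The ± is a standard error of the log2 difference, taken as its absolute value over the square root of F. Scripts were tested on simulated data. Departures from the group mean correlated between fed and fasted libraries of the same letter in all 32 pairs (r from 0.152 to 0.782, median 0.593). Those of opposite letters had a median of -0.566. The group mean was taken over both letters, so a shift between the letters gives such values by itself. They do not show that single samples are paired, and the headers name the letters as duplicates. No 2 of the 16 CR-day libraries within a group were near duplicates. RPKM were tested as log2 (RPKM + 0.1) with limma 3.58.1, and DESeq2 1.42.0 and limma-voom were alternatives, beside other scalings, filters, a GC correction (GC known for 99.87% of genes) and left-out libraries.

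Genes are named by rule: among genes called, those with the 12 highest and the 12 lowest log2 differences, given 1 sign in both letters and a mean of 5 CPM or more on the higher side, without predicted models; all core clock genes; up to 4 genes of smallest p in each of 40 lists; and up to 6 in each contrast between regimens. A few genes that these rules pick are not reported here. Other genes named in the text are members of a list that passed the test with or without CT44B, or overlap a named gene. The comparison, the gene lists and the motifs were chosen with earlier results of these data known. Coordinates of genes are from GENCODE vM21 (mm10) where the versioned gene ID matched.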

Additional observations from a re-analysis of the deposited data

Results flagged for a closer look

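A library's gap to its nearest neighbour within the 8 of its group exceeded Dixon's 95% critical value in 28 of the 240 groups of values examined. Independent groups of normally distributed values would give about 12.0. Each group here pools 2 letters and 4 hours, and all groups come from the same libraries, so 12.0 is not the count expected for these data. CT44B accounted for 8 of the 28: it was the highest fasted library for Nek2 (18.2 CPM), Dhrs9 (40.5 CPM) and Mki67 (105 CPM), and for the summed markers of stellate cells (1128 CPM), cholangiocytes (364 CPM), lymphocytes (33.2 CPM) and neutrophils and monocytes (24.1 CPM), and the lowest for the summed hepatocyte markers (57830 CPM). It differed from the median of the other fasted libraries by over 2 log2 units in 599 genes, against 49 to 483 for each of the other 7.

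CT16B was the highest fasted library for Pnpla3 (66.5 CPM), Insig1 (405 CPM), Akr1d1 (353 CPM), Klf9 (343 CPM), Rora (234 CPM) and Inhba (48.7 CPM). CT20A was the highest for Per1 (54.5 CPM), Per3 (53.1 CPM) and Alas1 (509 CPM), CT16A for Angptl8 (22.1 CPM) and CT44A for Lss (75.0 CPM). At fed hours CT08B was the highest for Cry1 (116 CPM), Bag3 (76.4 CPM), Inhba (182 CPM) and the summed neutrophil and monocyte markers (5.71 CPM). CT32A was the highest for Npas2 (5.04 CPM), CT32B for Nr1h4 (197 CPM) and Zfp12 (11.3 CPM), and CT04B for mt-Atp6 (4365 CPM), and CT04B was the lowest for Rpia (5.44 CPM).

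The difference between hours itself differed between CR-day and AL in 2291 genes, between CR-day and CR-night by the clock in 4388 and by the meal in 1294. Against AL the gap between the log2 differences was 5.93 in Nat8f5, 6.32 in Nat8f6, 2.23 in Ttc23, 5.23 in Lingo4 and 2.68 in Gda. Against CR-night by the clock it was 7.20 in Nat8f5, 7.52 in Nat8f6, 3.73 in Rpia, 3.84 in Mid1ip1 and 2.66 in Fkbp4. By the meal it was -4.76 in Hist2h3c1, 1.08 in Ddx46, 2.96 in Syt1, -1.10 in Serinc3 and -2.09 in Slc5a3.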

How the results depend on the processing

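The 1039 genes called between fed and fasted hours became 216 with no replicate block, 1570 with DESeq2, 1579 with a GC correction, 294 on day 1 alone, 38 on day 2 alone and 14 in letter B alone. With CT 8 and 32 alone as fed hours 331 were called, and with CT 20 and 44 alone as fasted hours 340. Leaving out 1 library at a time gave 689 (without CT16A) to 1304 (without CT08B). The other alternatives stayed within 1.5 times, from 727 with CT 4 and 28 alone as fed hours to 1433 in letter A alone; limma-voom gave 1120, size factors by RLE 1025, no filter on low counts 840 and a replicate block of letter by day 1228. Against AL the 2291 genes became 1370 with no replicate block, 1422 in letter A alone and 370 in letter B alone. Against TR-day the 0 became 1 with no replicate block and 1 without the TR-day library CT44A, whose clock genes an earlier account of these data placed away from its label. Against CR-night by the clock the 4388 became 2518 in letter A and 1421 in letter B alone. By the meal the 1294 became 459 with no replicate block, 300 in letter A alone, 43 in letter B alone and 733 when only these regimens were fitted. The letter A, letter B, day and hour alternatives have fewer libraries by construction; for the others the cause was not tested. No named gene reversed its direction in a called value under any alternative run. Of the values recomputed outside the left-out libraries, 1630 kept both direction and side of the threshold, whereas 404 lost the threshold. The rest, in classes of 40 and 7, changed in other ways. With single libraries left out, 1538 kept both and 187 lost the threshold, beside classes of 22 and 5. Leaving out CT44B was planned for the calls between fed and fasted hours, as for every other library; for the counts within lists and the contrasts between regimens it was chosen after seeing the data, and leaving out the TR-day CT44A after an earlier account of them. Totals ran from 6890208 to 14669985 counts in letter B and from 9765155 to 19087683 in letter A; the part of depth and of mitochondrial share in the fewer calls of letter B was not tested.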

Other observations

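In the integrated stress response list, Atf4, its central activator, rose by 0.62 ± 0.13 on the log2 scale (63.4, 87.0 and 109 CPM at fed against 40.9, 57.5 and 73.1 CPM at fasted hours; edgeR, adjusted p = 0.00598), while Trib3 fell, so that 1 of 14 genes was higher and 1 lower; without CT44B Atf3 was called higher as well. Junb, an immediate early gene, fell by 1.42 ± 0.32 and was the only one of 11 called; without CT44B 3 of that list were higher and 1 lower. Junb overlaps Prdx2 on the opposite strand. Hsd3b2, 1 of 21 male-biased liver genes, rose by 0.90 ± 0.25 and overlaps Zfp697 on the opposite strand. The histidyl tRNA synthetase Hars rose by 0.44 ± 0.12 as 1 of 20 such enzymes and overlaps Hars2. Beside these list counts, 4.68% of all genes were higher and 4.26% lower, or 5.62% and 5.46% without CT44B. Serinc5 was below all fasted values in every fed library, at 23.4 to 31.2 CPM against 33.6 to 49.1 CPM (log2 -0.49 ± 0.10).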
